A study of Mus musculus with 4 samples.

Results

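The genes described here are the glutathione transferases and a set of genes around NRF2, the transcription factor that drives antioxidant defence. They were taken by name from the expression table of primary mouse hepatocytes. The rule took protein-coding genes whose symbols name the alpha, kappa, mu, omega, pi, theta or microsomal glutathione transferase classes, which gave 24 genes. It added 11 genes of the NRF2 pathway. Gm3776 and Gm10639, protein-coding genes that lie between Gsta1 and Gsta2 on chromosome 9, carry other symbols and were not taken. These 35 genes are among 45777 in the table.

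The cells came from mice lacking Dusp6 (KO), the gene of a phosphatase that switches off ERK, or from wild-type mice (WT). Hepatocytes were cultured for 3 h, then kept for 24 h either without treatment or with palmitic acid at 0.5 mM together with oleic acid at 1 mM. Cells given the fatty acids are called loaded. The 4 groups are untreated WT, untreated KO, loaded WT and loaded KO, and each holds 1 library of total RNA. The strain and age of the mice, how the Dusp6 allele was made, whether cells of several animals were pooled and whether untreated cultures received a vehicle are details not stated in those sources that were used.

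Glutathione transferases couple glutathione to reactive or fat-soluble compounds so that the cell can export them. The soluble classes differ in the compounds they prefer, and the microsomal ones sit in membranes, where some also reduce lipid peroxides. The liver expresses many of them at high levels. NRF2, encoded by Nfe2l2, is normally held back by KEAP1. When oxidants or electrophiles modify KEAP1, NRF2 enters the nucleus, pairs with small MAF proteins and binds antioxidant response elements near genes of glutathione synthesis, thioredoxin recycling and many glutathione transferases.

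With 1 library per group, a difference between any pair of them cannot be set against replicate spread and is given without a p-value. Levels are the deposited FPKM, which are scaled to gene length and library. Differences are in log2(FPKM + 1), relative to the median over 5903 genes that reached an FPKM of 5 in all 4 libraries. On the deposited scale the log2 difference of that median gene was 0.00 between the untreated genotypes (KO minus WT), 0.38 between the loaded genotypes, -0.26 for loaded minus untreated cells of WT and 0.16 for those of KO. A gene is called higher or lower when this relative difference reached 2-fold. Genes that reached an FPKM of 1 in any library were compared, which left 32 members among 11927 genes. Intervals of read ratios are exact 95% binomial intervals, also relative to the median gene, and cover counting error only.

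Library depth ran from 85423156 to 97364292 reads. Dusp6 had 11235 and 22333 reads in the WT libraries and 394 and 348 in the KO libraries. The 7 hepatocyte markers compared, among them Alb, Ttr, Apoa1, Apob and Hnf4a, had a summed FPKM of 5592 in untreated WT, 8527 in untreated KO, 7130 in loaded WT and 9389 in loaded KO. Markers of other liver cells were also present. In the same order of libraries, 11 macrophage markers summed to 46.1, 101, 107.5 and 117.5, and 8 endothelial markers to 6.76, 19.2, 14.4 and 13.7. The sums were 7.16, 24.3, 16.8 and 22.8 for 6 cholangiocyte markers, with Krt7 and Cftr at 0 in every library, and 0.421, 2.04, 0.615 and 2.20 for 8 stellate cell markers. The sums over 5 red blood cell markers were 70.7, 62.0, 121 and 75.2, and those over 5 neutrophil and lymphocyte markers 4.60, 5.97, 8.84 and 8.68. The Y-linked gene Ddx3y was read in all 4 libraries, at an FPKM of 23.9 to 34.9. In such bulk libraries, fewer cells of a type and less RNA per cell cannot be told apart.

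Several members were among the most abundant transcripts of these cells. Srxn1, which encodes sulfiredoxin and repairs over-oxidised peroxiredoxins, ranked 46 among all genes by mean FPKM. Gstp1, the main pi class transferase, ranked 52 and Mgst1, the microsomal transferase of endoplasmic reticulum and mitochondrial outer membrane, ranked 54. Together the 24 glutathione transferases took 0.418% of reads in untreated WT, 0.457% in untreated KO, 0.405% in loaded WT and 0.551% in loaded KO. These shares are not relative to the median gene, whose own log2 read ratio was 0.38 between the loaded genotypes. In the same order, Rn7s1 and Rn7s2 together took 6.20%, 3.94%, 8.20% and 2.60% of reads.

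**Figure D1:**
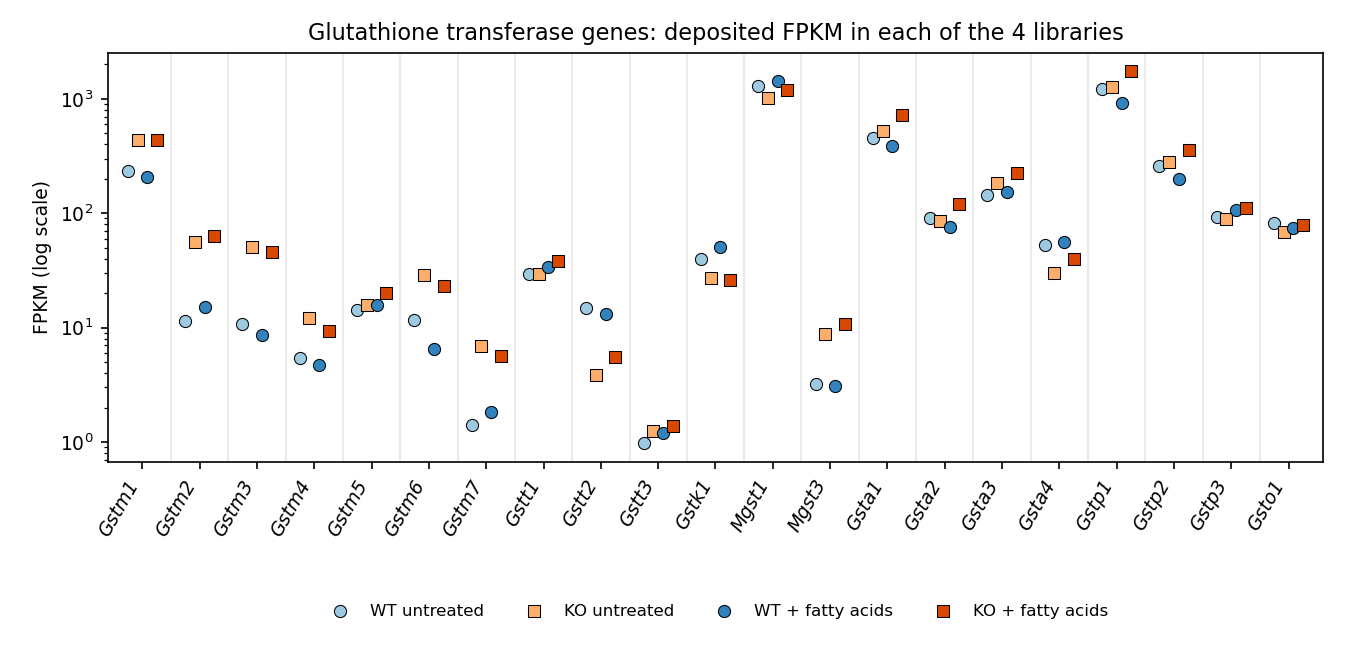
FPKM on a log axis of the 21 compared glutathione transferases, grouped by class, with 1 point per library (circles WT, squares KO). The squares stand farthest above the circles for Gstm2, Gstm3 and Gstm7 and farthest below them for Gstt2.

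The mu class held most of the calls between genotypes among the transferases. In untreated cells, 5 of 7 mu genes were at least 2-fold higher in KO and 0 were lower, with a median log2 difference of 1.22. With fatty acids 3 of 7 were higher and 0 lower, with a median of 0.86, against 3.12% and 8.43% of all compared genes. The deposited scale gave 5 of 7 higher with fatty acids, against 9.83% of all compared genes. With a pseudocount of 5 the count in untreated cells was 3, against 140 of 11927 compared genes. Over all members, 6 were higher and 1 was lower in untreated cells, where 3.55% of all compared genes were higher and 2.1% were lower. The median over all members was 0.14 against 0.08 over all compared genes.

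Gstm2 (Entrez 14863, mm10 chromosome 3, 107981702 to 107986420) encodes a mu transferase whose human counterpart is known from muscle. Its FPKM was 11.4 in untreated WT, 55.5 in untreated KO, 15.0 in loaded WT and 63.3 in loaded KO. KO thus lay above WT by 2.19 on the log2 scale without treatment and by 1.63 with fatty acids. Reads were 4.88 times as frequent in KO without treatment (95% interval 4.59 to 5.21, from 5688 and 1156 reads) and 3.21 times with fatty acids (3.04 to 3.39).

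Gstm3 (Entrez 14864, mm10 chromosome 3, 107963696 to 107969174) lies next to Gstm2. Its FPKM was 10.7 for untreated WT, 50.3 for untreated KO, 8.64 for loaded WT and 45.5 for loaded KO. The log2 differences were 2.13 and 1.90, and the read ratios 4.70 (4.42 to 4.99) and 4.0 (3.75 to 4.27).

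Gstm6 (Entrez 14867, 107938847 to 107953641) was at 11.8 in untreated WT, 28.8 in untreated KO, 6.53 in loaded WT and 22.9 in loaded KO. Its log2 differences between genotypes were 1.22 and 1.29, the second 0.97 with a pseudocount of 5. Gstm7 (Entrez 68312, 107926334 to 107931877) was a low gene, at 1.40, 6.89, 1.82 and 5.62 in the same order, from 181 to 937 reads. Its log2 difference was 1.72 in untreated cells and 0.86, under the 2-fold rule, with fatty acids, where the read ratio was 2.51 (2.17 to 2.90). The first was 0.89 with a pseudocount of 5, under the rule, and the second 1.23 on the deposited scale, 1.18 with a pseudocount of 0.1 and 1.04 as CPM, all past it.

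Gstm4 (Entrez 14865, 108030571 to 108045179) was at 5.46, 12.2, 4.75 and 9.39 and passed the rule without treatment but not with fatty acids, with log2 differences of 1.03 (0.72 with a pseudocount of 5) and 0.48. Gstm1, the most abundant mu gene in hepatocytes, was at 233 in untreated WT, 434 in untreated KO, 206 in loaded WT and 434 in loaded KO. It missed the rule in both conditions, with log2 differences of 0.90 and 0.69, though on the deposited scale the second was 1.07, past it. Gstm1 made up 80.9% of the summed FPKM of the class in untreated WT, 71.9% in untreated KO, 79.7% in loaded WT and 72.2% in loaded KO. Gstm5 was the mu gene nearest to no difference, at 14.2, 15.8, 15.8 and 20.2, with log2 differences of 0.14 and -0.04. Beside these differences, the summed FPKM of the hepatocyte, stellate cell and cholangiocyte markers were higher in both KO than in both WT libraries. These sums are not relative to the median gene, which itself was 0.38 higher in loaded KO in log2. Relative to that gene, the hepatocyte markers compared had a median log2 difference of 0.74 untreated and 0.20 with fatty acids. It was 1.34 and -0.38 for the 2 cholangiocyte markers compared, and 0.73 and 0.39 for the 1 stellate cell marker. Single markers in these sums differed. Apoa1, and Epcam at an FPKM under 1, were lower in both KO libraries than in both WT libraries, and Apob and Sox9 were lowest in loaded KO. Most of the cholangiocyte sum came from Spp1. In untreated KO 5 of 10 compared macrophage markers and 3 of 4 compared endothelial markers were called higher, against 3.55% of all compared genes. In loaded KO 1 macrophage marker was called higher and 3 lower, or 2 and 2 on the deposited scale, and 0 endothelial markers were called. Over all compared genes the shares in loaded KO were 3.12% higher and 8.43% lower, or 9.83% and 4.18% on the deposited scale. The part of these cell types in the mu class differences was not tested.

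The 7 mu genes lie side by side over 149 kb of mm10 chromosome 3, from 107895854 to 108045179, in the order Gstm5, Gstm7, Gstm6, Gstm3, Gstm2, Gstm1 and Gstm4. Gstm5 is the only one on the plus strand. The largest log2 differences were those of the central pair Gstm3 and Gstm2. Within 500 kb on either side of the cluster, 8 other genes were compared. None of these neighbours was 2-fold higher or lower in KO in either condition, and their log2 differences ran from -0.45 to 0.62 in untreated cells and from -0.72 to 0.62 with fatty acids. The neighbours were looked at after the values of the cluster had been seen.

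**Figure D2:**
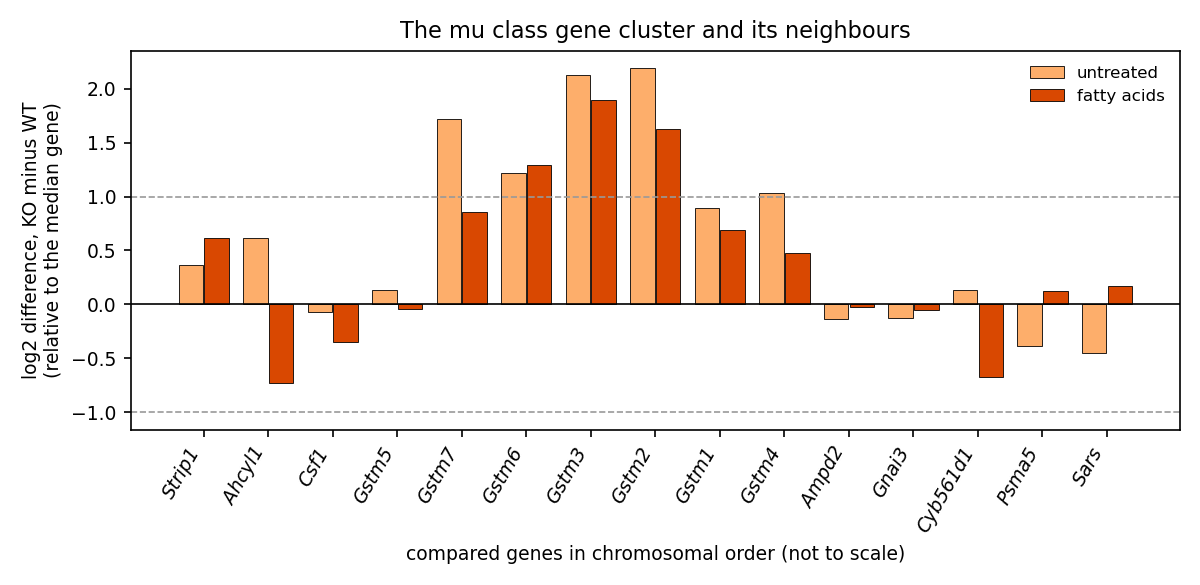
Log2 difference of KO minus WT, relative to the median gene, for the 7 mu genes and the 8 compared genes within 500 kb, in chromosomal order and not to scale (light bars untreated, dark bars fatty acids, dashed lines 2-fold). The highest bars are those of Gstm3 and Gstm2, and Gstm5 and the 8 genes outside the cluster stay within the dashed lines.

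Reads of close copies limit how far single mu genes can be separated. In the GENCODE M21 transcripts, 28.8% of the 50-base windows of Gstm3 also occur in transcripts of other genes, 18.9% of those of Gstm1, 5.97% of those of Gstm6, 5.65% of those of Gstm2 and 0.532% of those of Gstm7. Gstm4 and Gstm5 share none. The authors' treatment of reads with several matches is unknown from the sources used. The pseudogene Gstm2-ps1 on chromosome 5, which shares 14.1% of the windows of Gstm1 and 11% of those of Gstm3, was at an FPKM of 8.13, 15.4, 7.90 and 12.2 in the order untreated WT, untreated KO, loaded WT and loaded KO.

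The upstream sequences of the genes with the largest differences are shown because NRF2 is known to act through antioxidant response elements, whose core is TGACNNNGC. RefSeq windows on GRCm38.p6, reaching from 250 bases before to 50 bases after a gene start, were found for 30 of the 35 members. The 250 bases before the start, 5′ to 3′, hold no match to the core on either strand in Gstm2 or Gstm3.
Gstm2 (chr3:107986421-107986670, minus strand): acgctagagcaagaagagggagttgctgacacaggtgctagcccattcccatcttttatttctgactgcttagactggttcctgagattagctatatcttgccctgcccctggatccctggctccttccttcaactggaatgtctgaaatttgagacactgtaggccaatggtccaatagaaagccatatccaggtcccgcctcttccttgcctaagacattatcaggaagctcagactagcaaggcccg
Gstm3 (chr3:107969175-107969424, minus strand): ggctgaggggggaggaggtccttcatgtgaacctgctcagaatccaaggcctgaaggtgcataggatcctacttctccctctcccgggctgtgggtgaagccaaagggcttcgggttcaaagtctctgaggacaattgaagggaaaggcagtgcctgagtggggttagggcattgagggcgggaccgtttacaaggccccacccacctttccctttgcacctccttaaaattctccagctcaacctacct

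Matches occurred in 8 of the 30 members, against 17% of the 8770 compared genes with a window and 12.4% of all 32851 windows. They lay in 4 of the 8 NRF2 pathway genes with a window and in 2 of 7 mu genes. The matched stretches follow with the core, or its reverse complement, in capitals. Counted from the gene start, the match begins at -240 in Nfe2l2, -134 in Gclm, -92 in Txnrd1, 28 in Srxn1, -129 in Gstm7, -42 in Gstm5, -121 in Gsta3 and -56 in Mgst1. Txnrd1, Gstm7 and Mgst1 each have the match in 1 of several windows.
Nfe2l2 (chr2:75704885-75704913, minus strand): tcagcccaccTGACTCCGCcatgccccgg
Gclm (chr3:122245413-122245441, plus strand): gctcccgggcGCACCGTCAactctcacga
Txnrd1 (chr10:82859104-82859132, plus strand): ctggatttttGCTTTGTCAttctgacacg
Srxn1 (chr2:152105542-152105570, plus strand): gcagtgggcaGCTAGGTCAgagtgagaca
Gstm7 (chr3:107931725-107931753, minus strand): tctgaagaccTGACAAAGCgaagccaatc
Gstm5 (chr3:107895802-107895830, plus strand): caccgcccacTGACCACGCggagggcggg
Gsta3 (chr1:21240454-21240482, plus strand): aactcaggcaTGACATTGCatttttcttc
Mgst1 (chr6:138140461-138140489, plus strand): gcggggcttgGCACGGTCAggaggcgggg
Of these 8 genes, Gstm7 passed the 2-fold rule as higher in untreated KO and Nfe2l2 as lower in loaded KO, and the other 6 passed it in neither condition. Gstm2, Gstm3, Gstm4, Gstm6, Mgst3, Gstk1 and Osgin1 passed the rule in at least 1 condition with no match in their windows. Gstt2, Gsr and Hmox1 also passed it but have no window. The core of the element bound by the aryl hydrocarbon receptor, searched as TNGCGTG on both strands, was found in Gsta2 alone, against 9.75% of compared genes. Gsta2 has no match to the antioxidant core in its window. A match in letters is a description and not a binding site. Elements outside these windows were not searched, so a gene without a match may still have one elsewhere.

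Outside the mu class, Mgst3 was the other transferase called higher in KO in both conditions. The gene (Entrez 66447, chromosome 1, 167371966 to 167393841) encodes a microsomal enzyme with glutathione peroxidase activity. Its FPKM was 3.20 in untreated WT, 8.76 in untreated KO, 3.07 in loaded WT and 10.8 in loaded KO. The log2 differences were 1.21 and 1.17, from 347 to 1327 reads, and with a pseudocount of 5 they were 0.74 and 0.67, under the rule. Mgst1 went the other way by a smaller amount, at 1292, 1014, 1434 and 1196, with log2 differences of -0.35 and -0.64. Mgst2 stayed below the filter, with 0 reads in untreated WT and 18 to 21 in the other libraries.

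Gstt2 (Entrez 14872, chromosome 10, 75831842 to 75837419), a theta class transferase that also acts as a peroxidase on organic hydroperoxides, was the transferase lowest in KO. It had an FPKM of 14.7 in untreated WT, 3.83 in untreated KO, 13.2 in loaded WT and 5.52 in loaded KO. WT exceeded KO by 3.78 times in reads without treatment (3.43 to 4.17, from 1993 and 531 reads) and 3.26 times with fatty acids (3.00 to 3.54), and the log2 differences were -1.70 and -1.50. The neighbouring Gstt1 was nearly level, at 29.3, 29.5, 33.7 and 38.4, and Gstt3 was close to an FPKM of 1 in all 4 libraries. Gstt4 had 0 reads in every library, where a count of 0 allows up to 3 reads.

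Gstk1 (Entrez 76263, chromosome 6, 42245935 to 42250441), the kappa class transferase of mitochondria and peroxisomes, was at 39.9 in untreated WT, 27.2 in untreated KO, 51.0 in loaded WT and 26.1 in loaded KO. Only its difference with fatty acids passed the rule, at -1.32 in log2 against -0.54 without treatment. The first of these was -0.94 on the deposited scale and did not pass.

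The alpha class handles lipid peroxidation products, and none of the 4 alpha genes taken by symbol passed the rule in any comparison. Gsta4, which is known for its preference for the lipid aldehyde 4-hydroxynonenal, came nearest, with an FPKM of 52.6 in untreated WT, 30.0 in untreated KO, 55.8 in loaded WT and 39.8 in loaded KO. The log2 differences between genotypes were -0.79 and -0.85. Gsta1 was at 452, 529, 384 and 725, Gsta2 at 90.4, 85.2, 75.8 and 121, and Gsta3 at 144, 182, 154 and 225 in the same order. Gsta1 shares 90.5% of its 50-base windows with other genes, mostly with Gm3776, so its own level is uncertain. Gm3776 had 35606, 41594, 31550 and 63972 reads beside 38433, 45223, 34243 and 69593 for Gsta1.

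The pi class was close to even between genotypes without treatment. Gstp1 was at 1231 in untreated WT, 1278 in untreated KO, 924 in loaded WT and 1738 in loaded KO, highest in the last. Its log2 differences between genotypes were 0.05 and 0.53. Gstp2 was at 257, 283, 199 and 360, but shares 49.1% of its windows with Gstp1, and Gstp1 shares 33.7% with Gstp2. The pseudogene Gstp-ps, at 156, 162, 119 and 210, shares windows with both. Gstp3 has no shared window and was at 92.4, 89.8, 107 and 111. In the omega class, Gsto1 was at 81.7, 68.8, 74.3 and 78.9, and Gsto2 stayed below the filter with 0 to 38 reads.

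Of the pathway's own regulators, Nfe2l2 encodes NRF2 and Keap1 its inhibitor. Nfe2l2 (Entrez 18024, chromosome 2, 75675513 to 75704663) was at an FPKM of 61.9 in untreated WT, 49.0 in untreated KO, 74.0 in loaded WT and 45.6 in loaded KO. The log2 differences between genotypes were -0.33 and -1.06. The second of these was -0.69 on the deposited scale and -0.95 with a pseudocount of 5, which do not pass the rule. Keap1 was at 13.5, 11.7, 8.67 and 13.9 and passed the rule in no comparison.

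Hmox1 (Entrez 15368, chromosome 8, 75093618 to 75100593), which encodes haem oxygenase 1, was the sole member called higher with fatty acids in WT. Its FPKM was 347 in untreated WT, 292 in untreated KO, 639 in loaded WT and 357 in loaded KO, so that 1 library stood above the other 3. The log2 difference with fatty acids was 1.14 in WT (read ratio 2.24, 2.22 to 2.27) and 0.13 in KO, and the genotype difference in loaded cells was -1.21. On the deposited scale these were 0.88, 0.29 and -0.84, none past the rule. Macrophages also express Hmox1, and 9 of 10 compared macrophage markers were at least 2-fold higher in loaded WT than in untreated WT. Between the KO libraries 0 of 10 were. Of all compared genes, 3.57% were called higher with fatty acids in WT and only 0.101% in KO. The summed FPKM of the macrophage markers was 46.1 in untreated WT, 101 in untreated KO, 107.5 in loaded WT and 117.5 in loaded KO. Red blood cell markers were called higher in loaded WT in 3 of 5 and between the KO libraries in 0 of 5. In loaded WT 6 of 10 macrophage markers and 0 of 5 red blood cell markers were called higher on the deposited scale. The share of all compared genes was then 1.78%. The part of either cell type in the Hmox1 difference was not tested.

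Osgin1 (Entrez 71839, chromosome 8, 119425882 to 119446257), an oxidative stress response gene known as a growth inhibitor, was the member whose fatty acid response differed most between the genotypes. It was at 215 in untreated WT, 236 in untreated KO, 322 in loaded WT and 110 in loaded KO. Between the untreated libraries it was nearly even, at 0.13 in log2, and the 2 treated libraries lay on either side of them. The log2 difference of loaded minus untreated cells was 0.85 in WT, under the 2-fold rule, and -1.26 in KO. Its log2 difference between genotypes was -1.92 in loaded cells. WT exceeded KO in reads by 3.86 times with fatty acids (3.80 to 3.91, from 65979 and 24272 reads).

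**Figure D3:**
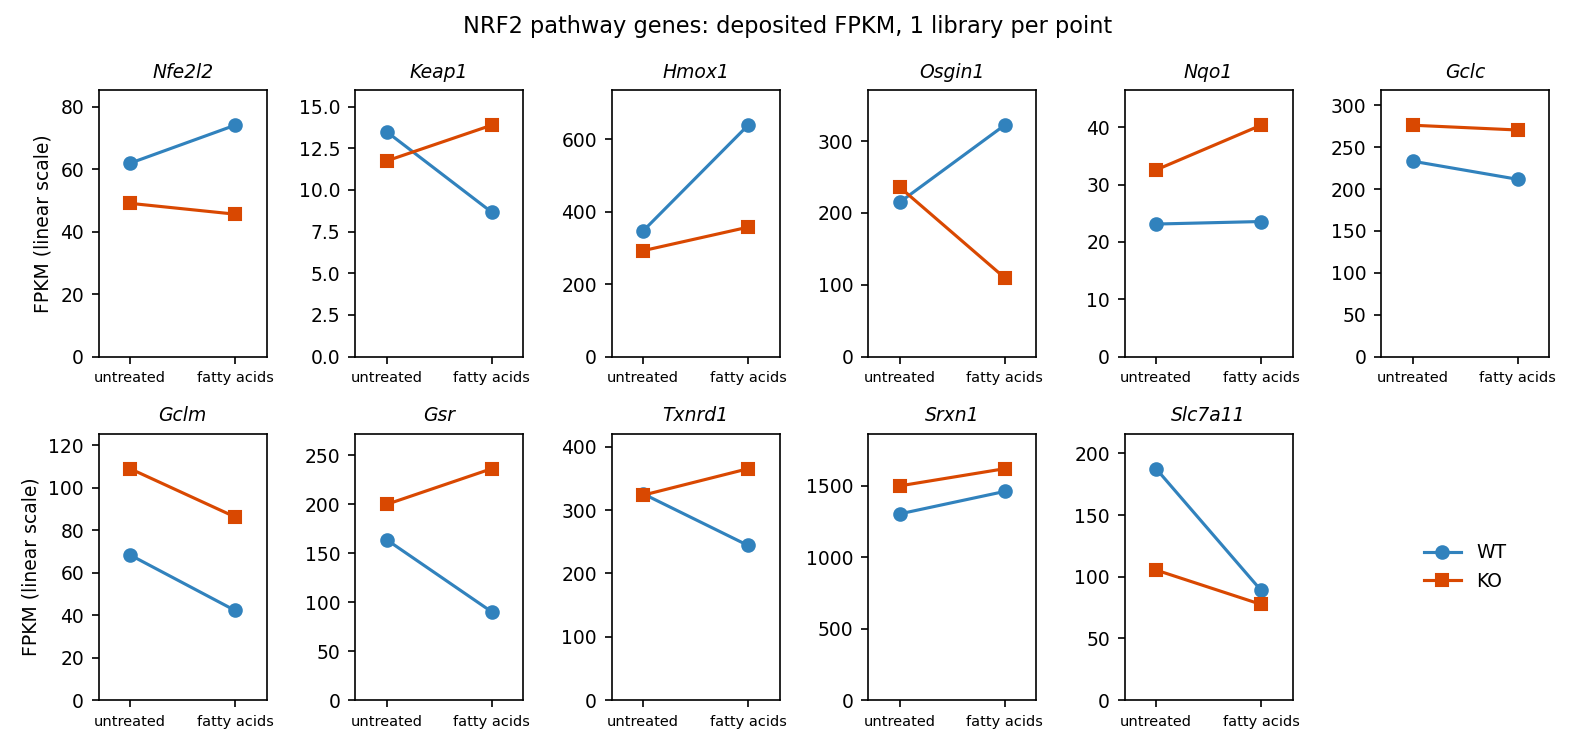
FPKM of the 11 NRF2 pathway genes on linear axes from 0, untreated on the left and fatty acids on the right of each panel, with 1 library per point (blue circles WT, orange squares KO). Hmox1 goes from 347 to 639 in WT and from 292 to 357 in KO, and the Osgin1 lines cross, from 215 to 322 in WT and from 236 to 110 in KO.

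Among the genes of glutathione supply and recycling, Gclm and Gsr stood higher in both KO libraries than in the WT library of the same condition, and Slc7a11 lower. Gclm, the modifier subunit of the enzyme that makes gamma-glutamylcysteine, was at 68.3 in untreated WT, 109 in untreated KO, 42.2 in loaded WT and 86.2 in loaded KO. Its log2 differences between genotypes were 0.66 and 0.64 (the second 1.01 on the deposited scale, past the rule), while those for the catalytic subunit Gclc, at 233, 276, 212 and 270, were 0.24 and -0.02. Gsr (Entrez 14782, chromosome 8, 33653238 to 33698162), glutathione reductase, was at 164, 200, 90.3 and 236. Its difference of 0.28 without treatment and 1.00 with fatty acids put it just at the 2-fold line in the second, and it missed that line with a pseudocount of 0.1. Slc7a11, the cystine importer that feeds glutathione synthesis, was highest in untreated WT, at 188, against 105 in untreated KO, 89.0 in loaded WT and 77.6 in loaded KO. Its log2 differences were -0.83 and -0.57 between genotypes and -0.80 and -0.60 for fatty acids in WT and KO, all under the rule, though on the deposited scale that for fatty acids in WT was -1.07, past it.

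Nqo1, a quinone reductase often used as a marker of NRF2 activity, was at 23.1 in untreated WT, 32.6 in untreated KO, 23.6 in loaded WT and 40.4 in loaded KO, with log2 differences of 0.47 and 0.38 between genotypes. Txnrd1, cytosolic thioredoxin reductase, was at 326, 324, 244 and 365, and Srxn1 at 1302, 1498, 1459 and 1618. Neither passed the rule in any comparison. None of the 11 genes was called between the untreated libraries. With fatty acids Gsr was called higher in KO, and Osgin1, Hmox1 and Nfe2l2 lower.

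**Figure D4:**
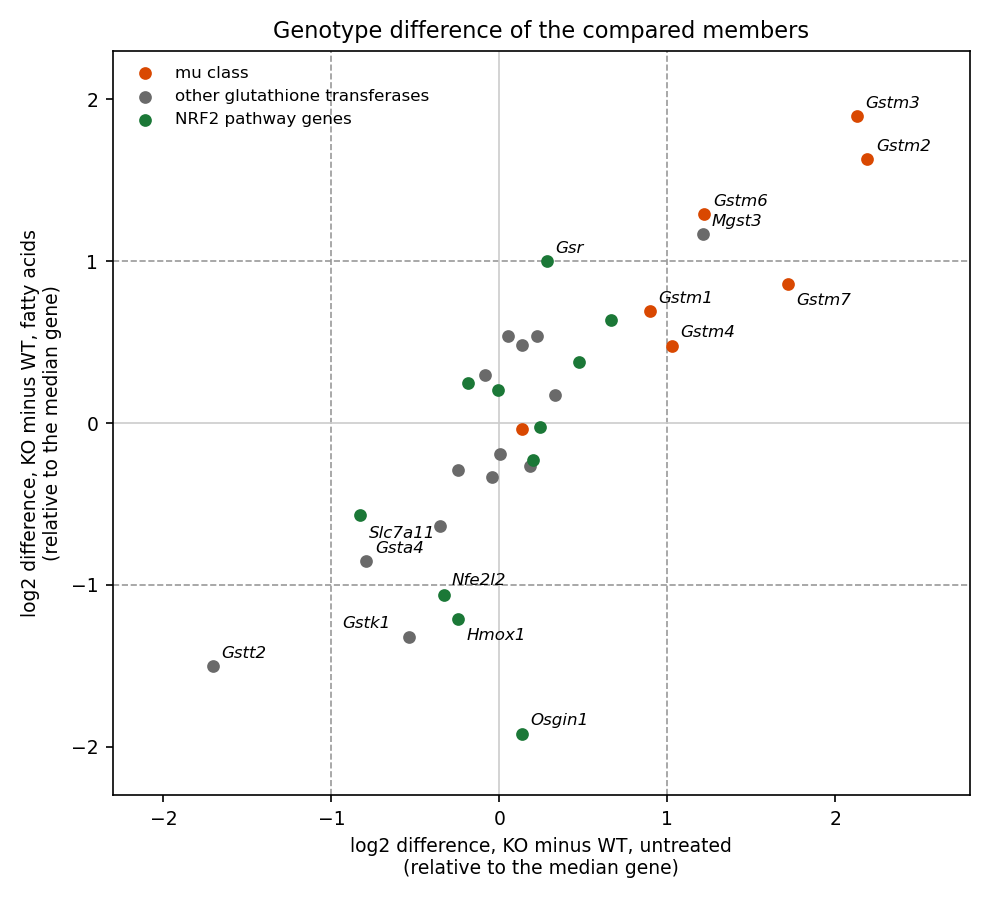
Log2 difference of KO minus WT relative to the median gene, without treatment (horizontal) and with fatty acids (vertical), for the 32 compared members; dashed lines mark 2-fold. Gstm2, Gstm3, Gstm6 and Mgst3 pass on both axes in the upper right, Gstt2 passes on both in the lower left, and Osgin1 lies at 0.13 and -1.92.

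With fatty acids, 5 members in all were called higher and 5 lower in KO, against 3.12% and 8.43% of all compared genes. The median log2 difference was 0.19 over the members and -0.06 over all compared genes. On the deposited scale, without the shift to the median gene, the counts were 8 and 2, against 9.83% and 4.18%. Calls with fatty acids against untreated cells were few. In WT 1 member was higher and 0 lower, against 3.57% and 0.654% of all compared genes. The deposited scale gave 0 higher and 1 lower, against 1.78% and 2.24%. In KO 0 members were higher and 1 was lower, against 0.101% and 5.05%, with the same counts on the deposited scale against 0.168% and 3.3%. At the edge of the rule, Gstm4 lay just inside at 1.03 and Gstm1 just outside at 0.90 in untreated cells, where on the lower side Gstt2 was inside at -1.70 and Slc7a11 outside at -0.83. In loaded cells Gsr was inside at 1.00 and Gstm7 outside at 0.86, and Nfe2l2 was inside at -1.06 and Gsta4 outside at -0.85. For the fatty acids, Hmox1 was inside at 1.14 and Osgin1 outside at 0.85 in WT, and Osgin1 was inside at -1.26 and Slc7a11 outside at -0.60 in KO. The 4 comparisons share libraries, so their values are not independent of each other.

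All 4 libraries were also fitted together with 1 term each for genotype and treatment. This additive model leaves 1 residual degree of freedom, and a treatment response that differs between genotypes enters it as noise. In edgeR's quasi-likelihood test on read counts, with Benjamini-Hochberg adjustment over 17611 genes, 5 of 34 members tested were higher in KO at an adjusted p under 0.05 and 1 was lower, against 1.32% and 1.56% of all genes tested. The log2 effect was 2.11 for Gstm3 (adjusted p = 0.0022), 1.98 for Gstm2 (0.0035), 1.84 for Gstm7 (0.025), 1.35 for Gstm6 (0.037) and 1.43 for Mgst3 (0.049). It was -1.82 for Gstt2 (adjusted p = 0.010). Without a filter on low counts, over 23946 genes, 2 of the 6 calls were left, Gstm3 (adjusted p = 0.023) and Gstm2 (0.034). For the fatty acid term, edgeR called 0 members, against 0% of all genes higher and 0.0114% lower, and DESeq2 and limma also called 0. At an unadjusted p under 0.05 edgeR had 1 member, Hmox1, higher, where 244 of all genes tested were higher and 657 lower. Whether the samples came from separate animals is not given. With 1 library per group, these p-values rest on departures from the additive model, pooled in part over genes, and not on replicate spread.

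Other genes of the pathway were described by lists. Their counts stand against 3.55% higher and 2.1% lower of all compared genes in untreated KO and 3.12% and 8.43% in loaded KO, or 9.83% and 4.18% in loaded KO on the deposited scale. Among 11 compared regulators of NRF2, 0 were higher and 1 was lower in untreated KO, and 0 and 2 with fatty acids. With fatty acids 1 was higher (Dpp3) and 1 lower (Maff) on the deposited scale. Sqstm1, which encodes the autophagy adaptor p62 that competes for KEAP1, was lower in both (log2 differences -1.27 and -1.33, the second -0.96 on the deposited scale and then not past the rule), at an FPKM of 4541 in untreated WT, 1887 in untreated KO, 4427 in loaded WT and 2283 in loaded KO. Maff, a small MAF partner, was at 59.2, 32.8, 81.2 and 38.4 and had log2 differences of -0.83 in untreated and -1.44 in loaded cells, the second past the rule. Of 9 compared genes of glutathione synthesis and turnover, 0 were called untreated and 1 was higher in loaded KO. The called gene was Slc3a2, the partner subunit of the cystine importer, at 102, 161, 56.0 and 155. Chac1 and Cth passed as well on the deposited scale, which made 3 higher.

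Among 19 compared glutathione peroxidases, thioredoxins and peroxiredoxins, 0 were called between the untreated libraries. With fatty acids Prdx6, a peroxiredoxin that uses glutathione, was higher in KO, at 877 against 268, and Glrx, a glutaredoxin, was lower, at 23.6 against 40.2. Without the shift to the median gene, 3 were higher (Prdx6, Gpx7 and Txnrd2) and 0 lower. Of 30 other NRF2 targets of mouse liver, 2 were higher and 1 lower in untreated KO, and 3 higher and 2 lower with fatty acids. The latter counts were 7 and 1 on the deposited scale. Their median log2 difference was 0.46 untreated and 0.24 with fatty acids, against 0.08 and -0.06 over all compared genes. Cyp2a5, a cytochrome P450 induced by several stresses, was at 397 in untreated WT, 1359 in untreated KO, 365 in loaded WT and 1631 in loaded KO. Aldh3a2, a fatty aldehyde dehydrogenase, was lower in KO in both, at 53.3, 23.1, 57.6 and 26.3. Of 5 other glutathione-using enzymes compared, 0 were called in any comparison.

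Some transferase genes are also targets of the aryl hydrocarbon receptor or of the nuclear receptor CAR. Of 10 compared genes in a list drawn around those 2 receptors, 4 were higher and 2 lower in untreated KO. With fatty acids the counts were 3 and 2, or 4 and 2 on the deposited scale. Cyp1a1, Cyp1a2 and Cyp2c55 were called higher in both conditions and Cyp3a11 in untreated cells only. The additional gene on the deposited scale was Por. Cyp1a1 was at 1.36 in untreated WT, 45.1 in untreated KO, 0.687 in loaded WT and 56.0 in loaded KO. Cyp2b10, a CAR target, was lower in KO, at 46.2, 17.9, 51.8 and 17.2, as was Nr1i3, which encodes CAR, at 11.4, 1.63, 8.57 and 1.95. The 6 lists of related genes were written with earlier results of these data known.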

How the data were processed

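RNA was purified with DNase digestion and made into libraries with a stranded total RNA kit, per the labels' protocols. Tools named in the submitters' processing notes, with no role given, are StringTie 2.1.3b, Bowtie2, HISAT2 2.1.0, Trimmomatic 0.38 and FastQC 0.11.7, and the build is mm10. How reads were counted, whether by strand, and the annotation release are not given in these sources, so reads of a gene and of an overlapping or antisense partner may be mixed. The authors deposited whole read counts, FPKM and TPM for 45777 genes, per the file headers. The deposited TPM are the FPKM rescaled to an equal sum and served as an alternative.

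Computed here were log2(FPKM + 1), its difference between libraries centred on the median gene, exact binomial intervals of read ratios, and additive fits on read counts. A pseudocount of 1 understates differences of low genes. Values in all libraries are given for each member past 2-fold in any comparison and for the 11 named pathway genes, and for other members by class. From each related list up to 4 genes with the largest difference and an FPKM of 5 in the higher library could be given with values. Other called genes of a list could be given by name only. Members, lists and tests were chosen with earlier results of these data known. Coordinates and promoter windows come from RefSeq (GRCm38.p6, the same sequence as mm10), with coordinates for all 35 members. Shared 50-base windows come from GENCODE M21 transcripts. The alternatives were pseudocounts of 0.1 or 5, other filters on FPKM (none, or 5), the deposited scale, CPM computed from the read counts, a 1.5-fold rule, DESeq2 and limma. Deposited TPM and the counts for the mu class alone were added after seeing the data. Scripts were tested on simulated data. Versions were R 4.3.3, edgeR 4.0.16, limma 3.58.1, DESeq2 1.42.0, Python 3.11.15, numpy 2.4.6, pandas 2.3.3, scipy 1.17.1 and matplotlib 3.10.9.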

Additional observations from a re-analysis of the deposited data

Results flagged for a closer look

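Osgin1 stood out because its response to fatty acids went in opposite directions in the 2 genotypes, by 0.85 in WT and -1.26 in KO on the log2 scale relative to the median gene. The response in KO minus that in WT was -2.10. On the deposited scale the responses were 0.58 and -1.10. With 1 library per group the difference between the responses was not tested.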

How the results depend on the processing

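Of 19 calls of single members by the 2-fold rule, 8 passed in all 8 other settings and 7 in all but 1, and no called difference changed sign. The filter settings leave the log2 difference of a gene unchanged and the 1.5-fold rule is looser, so these could hardly remove a call. With a pseudocount of 5, members higher in KO numbered 3 of 32 untreated and 3 with fatty acids, and 3 mu genes were higher untreated. On the deposited scale, KO against WT in loaded cells gave 8 higher, 5 of them mu genes, and 2 lower, and fatty acids in WT gave 0 higher and 1 lower. Deposited TPM, added after seeing the data, gave 15 higher, 6 of them mu genes, and 1 lower for the former, against 3340 and 360 of all compared genes. For the latter it gave 0 members higher and 1 lower, against 207 and 638 of all compared genes. On TPM the median gene itself stood at 0.76 in the former and -0.39 in the latter, in log2. A 1.5-fold rule gave 3 lower in KO untreated and 8 higher in loaded KO (5 of them mu genes), against 803 and 1324 of 11927 compared genes. For fatty acids it gave 4 higher and 2 lower in WT, against 1395 and 607 of all compared genes, and 2 lower in KO, against 1768. The other settings left the member counts within 1.5 times. In the additive fit, leaving out the filter gave 2 members higher and 0 lower for genotype, and more genes were then tested. Over all compared genes, the counts higher and lower were 423 and 250 for untreated KO against WT, 140 and 99 with a pseudocount of 5 and 942 and 482 with one of 0.1. For loaded KO against WT they were 372 and 1006, 156 and 385 with a pseudocount of 5, and 1172 and 498 on the deposited scale. Over all genes tested, edgeR called 232 higher and 274 lower for genotype, against 432 and 444 by DESeq2, 643 and 313 by limma and 60 and 76 without a filter. No paired analysis was possible because each group holds 1 library, and for the same reason no library could be left out of a comparison.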

Other observations

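Gstt2, the transferase lowest in KO, lies on chromosome 10, as does Dusp6, 23.4 Mb away. Within 500 kb of the theta genes, 13 other genes were compared. Between the untreated libraries 0 of them were called, with log2 differences from -0.93 to 0.67, and with fatty acids Smarcb1 was higher in KO (1.25) and Ddt, the gene of D-dopachrome tautomerase, lower (-1.16). Ddt was at -0.78 on the deposited scale, which does not pass the rule. These genes were looked at after their values had been seen.

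Slc3a2 and Slc7a11 encode the 2 subunits of the cystine importer, and their levels were ordered differently. Slc3a2 was higher in KO than in WT in each condition, at 161 against 102 untreated and 155 against 56.0 with fatty acids. Slc7a11 was lower in KO than in WT in each condition.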
